A study of Mus musculus with 6 samples.

Results

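The Notch pathway was examined through 10 of its genes, the receptors Notch1 to Notch4, the ligands Jag1, Jag2 and Dll4, and the effectors Hes1, Hey1 and Hey2. The genes were listed by symbol, and 9 of the 10 were found by Ensembl identifier among the 29616 genes of the table. The level of Hey2 was not analysed here. RNA was sequenced from bone cells of C57BL/6 mice, named C57BL/6J in the methods of the study. There were 3 control libraries and 3 from animals treated with dexamethasone, a synthetic glucocorticoid. According to the methods of the study, dexamethasone was given every day at 0.08 µg/g, starting at 8 weeks of age and lasting 4 weeks. The results section of the study states that the sequenced cells were Osteocalcin-positive and came from bones whose marrow had been removed. In the labels of the samples the material is called bone cells, with no further detail. The methods describe cell sorting after fixation and permeabilization for antibody staining. Whether a library came from 1 mouse or from a pool is not given in the sources used here, so the p-values measure the spread between these libraries, which may be partly technical.

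Notch receptors are single-pass membrane proteins that are activated by ligands on a neighbouring cell. Ligand binding exposes the receptor to cleavage by an ADAM protease and then by gamma-secretase, and the released intracellular domain enters the nucleus, where it joins the DNA-binding protein RBPJ and a Mastermind coactivator to switch on genes such as those of the Hes and Hey repressors. In bone, Notch activity is known to hold osteoblast precursors back from maturation, and Hes and Hey proteins can bind and restrain the osteoblast factor Runx2. In blood vessels, the same pathway guides arterial identity and sprouting.

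The deposited values are read counts divided by a size factor for each library, called normalized counts here. The libraries held 83025489, 81186636 and 88354925 reads in control replicates 1, 2 and 3, and 89910728, 75526030 and 72596611 in those of the dexamethasone group. Mitochondrial genes took 4.94%, 5.08% and 4.92% of the reads in the control libraries and 4.19%, 4.50% and 4.48% in the dexamethasone libraries. The share was lower in each dexamethasone library, and its part in the differences described here was not tested. Osteocalcin itself is encoded by Bglap and its close paralog Bglap2. Bglap had 98.2, 102 and 122 normalized counts in the control libraries and 9.54, 12.0 and 15.1 in the dexamethasone libraries. Per kilobase of exon this was 174 in control and 19.8 in dexamethasone cells, whereas the collagen gene Col1a1 had 146568 and 39798. Bglap2 had 339, 333 and 299.7 normalized counts in the control libraries and 29.6, 30.5 and 33.7 in the dexamethasone libraries, or 687 and 66.4 per kilobase. Among all tested genes with a known exon length, Bglap was at percentile 43.9 in control and 18.8 in dexamethasone cells, and Bglap2 at percentile 70.2 and 32.4. Both transcripts were thus lower in each dexamethasone library. Sequence shared between these paralogs was not examined, and reads of such sequence can be lost from counts per gene. Their levels and percentiles beside those of other genes are therefore uncertain and may be too low.

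All 9 Notch genes passed the filter on low values, a mean normalized count of 10 over the 6 libraries, Hey1 through its control libraries. Of these 9, 5 were differentially expressed, which required an adjusted p from limma under 0.05 together with a log2 fold change (log2FC, dexamethasone minus control) of 1 or more in size. The same requirement was met by 22.3% of all 17442 genes tested. Notch4 and Hes1 were higher with dexamethasone, a direction called for 11.7% of all genes. Notch3, Jag1 and Hey1 were lower, a direction called for 10.6% of all genes. With the adjusted p-value alone, 7 of the 9 genes passed, close to the 72.5% of all genes that did so. The libraries of the 2 groups did not overlap for 8 of the 9 genes, where 74.7% of all genes did not overlap. The median log2FC of the 9 genes was 0.27, beside 0.00071 for all genes. With all libraries scaled to 1 common total it was 0.16, beside -0.11 for all genes. After quantile normalization it was 0.05, beside -0.07. Each role thus held genes that moved in opposite directions or genes that did not pass. In bulk RNA, fewer cells of a type and less RNA per cell cannot be told apart.

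**Figure D1:**
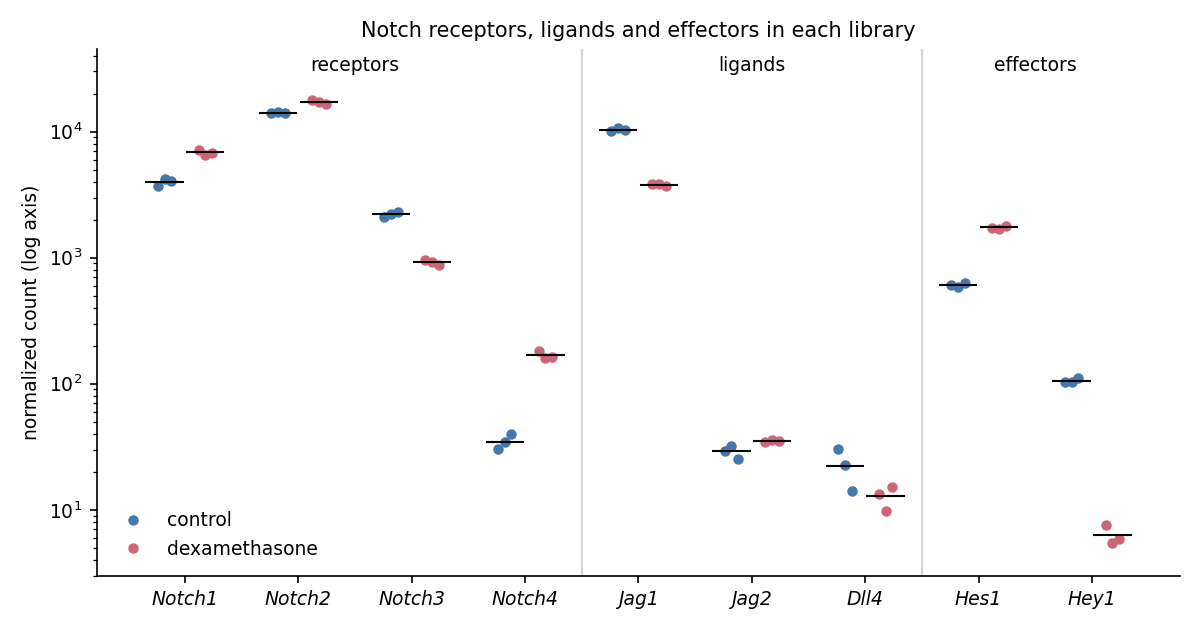
Normalized counts (log axis) of the 9 Notch genes in each of the 3 control and 3 dexamethasone libraries, with 1 point per library and a bar at the mean of each group. Notch4 and Hes1 lay higher and Notch3, Jag1 and Hey1 lower in the dexamethasone libraries, while the points of Dll4 overlapped between groups.

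Among the receptors, Notch4 had the largest rise of the 9 genes, Notch1 and Notch2 rose by less than the fold cut-off, and Notch3 fell. Notch1 (ENSMUSG00000026923), the receptor with the widest known use in tissues, had 3730.1, 4198 and 4075 normalized counts in the control libraries, given here and throughout in the order of replicates 1, 2 and 3. It had 7203, 6534 and 6741 in the dexamethasone libraries. Every dexamethasone library was above every control library, and the groups were well apart. The mean rose from 4000.9 ± 242 (SD, n = 3) to 6826 ± 343 (SD, n = 3), a log2FC of 0.77 (standard error, SE, 0.044, limma-adjusted p = 5.98e-14). This was short of the fold cut-off.

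Notch2 (ENSMUSG00000027878), which acts in bone remodelling and in osteoclast precursors, had 13972, 14393 and 13980.2 normalized counts in the control libraries and 17680.5, 17119 and 16508 in the dexamethasone libraries. The groups did not overlap, with every dexamethasone library above the controls. The log2FC was 0.28 (SE 0.036, limma-adjusted p = 1.9e-07). It was 0.16 with all libraries scaled to 1 common total, and 0.05 after quantile normalization, where it no longer passed (limma-adjusted p = 0.0867, the highest of its alternatives, where the lowest was the DESeq2 adjusted p of 2.43e-16).

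Notch3 (ENSMUSG00000038146), a receptor known mainly from vascular smooth muscle and pericytes, had 2112, 2232 and 2309 normalized counts in the control libraries and 962, 929.8 and 871 in the dexamethasone libraries. All 3 dexamethasone libraries were below the lowest control library. The mean fell from 2218 ± 99.7 (SD, n = 3) to 921 ± 46.0 (SD, n = 3), a log2FC of -1.27 (SE 0.052, limma-adjusted p = 5.86e-17). The control mean was 2.41 times the dexamethasone mean.

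Notch4 (ENSMUSG00000015468), a receptor found mostly on endothelial cells, had 30.3, 34.2 and 39.5 normalized counts in the control libraries, from 33, 35 and 45 reads each. It had 181, 161 and 162 in the dexamethasone libraries, from 190, 148 and 139 reads. The dexamethasone libraries lay close together, far above the controls. The log2FC was 2.25 (SE 0.168, limma-adjusted p = 1.05e-11), and the dexamethasone mean was 4.84 times the control mean. Notch1 and Notch4 were among the genes the study displayed from these libraries, so their direction here is not independent evidence.

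Levels of different receptors were compared per kilobase of exon. Notch2 made up 70.1% ± 0.952 (SD, n = 3) of the summed receptor level in control and 72.1% ± 0.595 (SD, n = 3) in dexamethasone cells. The share of Notch1 was 15.0% ± 0.574 (SD, n = 3) in control and 21.8% ± 0.652 (SD, n = 3) in dexamethasone cells. The share of Notch3 was 14.7% ± 0.498 (SD, n = 3) in control and 5.17% ± 0.112 (SD, n = 3) in dexamethasone cells. Control cells thus held Notch1 and Notch3 at levels whose ranges overlapped, and dexamethasone cells held more Notch1 than Notch3 in every library. The overlap in control cells depended on the lengths used, since with the longest transcript of each gene the control shares were 20.6% for Notch1 and 13.5% for Notch3. The share of Notch2 was then 65.7% in control and 65.5% in dexamethasone cells. Notch4, in spite of its rise, went only from 0.230% ± 0.0286 (SD, n = 3) to 0.947% ± 0.0333 (SD, n = 3) of the receptor level. The summed level was 1823, 1910.02 and 1873 normalized counts per kilobase in the control libraries and 2287, 2182 and 2132 in the dexamethasone libraries.

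**Figure D2:**
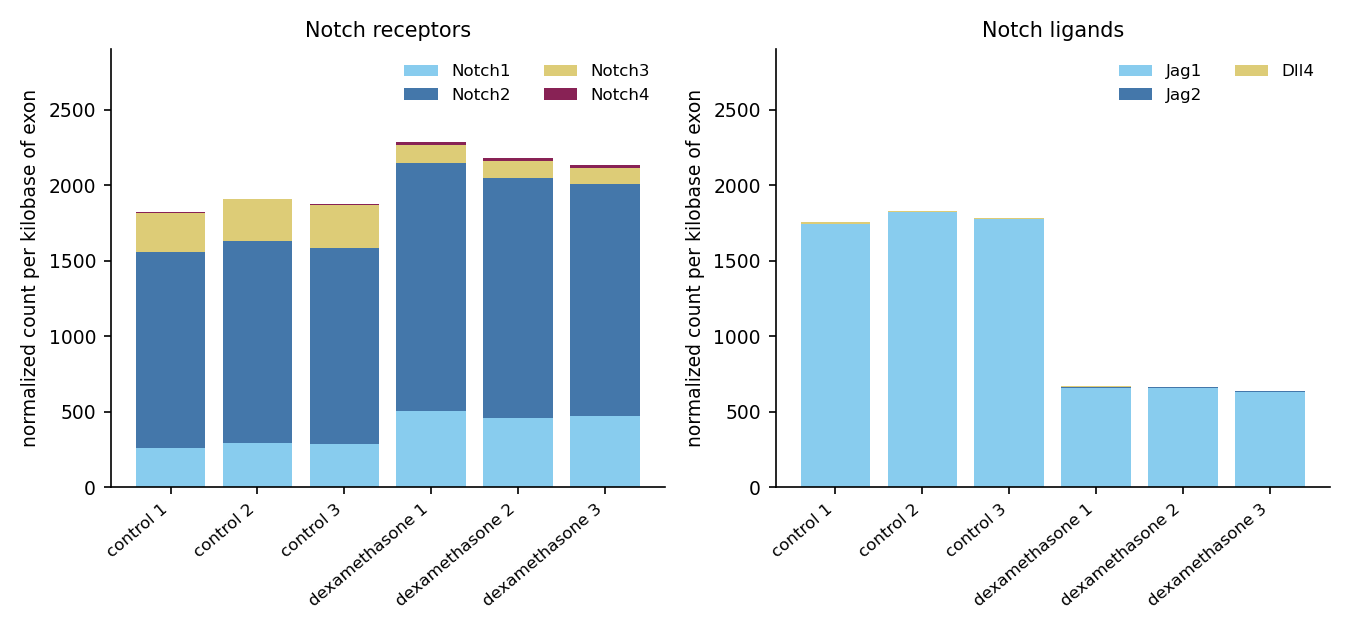
Level of each Notch receptor (left) and of the ligands Jag1, Jag2 and Dll4 (right), in normalized counts per kilobase of exon, stacked for each of the 3 control and 3 dexamethasone libraries. Notch2 formed most of the receptor level in both groups, at 70.1% and 72.1%. The level of these 3 ligands, with others such as Dll1 not included, was nearly all Jag1 and was lower in the 3 dexamethasone libraries.

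Among the ligands, Jag1 fell and neither Jag2 nor Dll4 passed the test. Jag1 (ENSMUSG00000027276), a membrane ligand with known functions in osteoblast precursors and in vessels, had 10151, 10609 and 10337 normalized counts in the control libraries. It had 3847, 3833 and 3674 in the dexamethasone libraries. The groups did not overlap, and the libraries within each group lay close together. The mean fell from 10366 ± 230.3 (SD, n = 3) to 3785 ± 95.8 (SD, n = 3), a log2FC of -1.45 (SE 0.036, limma-adjusted p = 1.73e-21). The control mean was 2.74 times the dexamethasone mean.

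Jag2 (ENSMUSG00000002799), the other Jagged ligand, had 29.4, 32.3 and 25.5 normalized counts in the control libraries and 34.3, 36.0 and 34.9 in the dexamethasone libraries. Each dexamethasone library was above each control library, but the values rested on 29 to 36 reads in each library. The log2FC of 0.27 (SE 0.242) did not pass (limma-adjusted p = 0.325). Over the alternatives the adjusted p-value ranged from 0.0412, for limma without a trend, to 0.576.

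Dll4 (ENSMUSG00000027314), a ligand of arterial and sprouting endothelial cells, had 30.3, 22.5 and 14.1 normalized counts in the control libraries and 13.4, 9.81 and 15.1 in the dexamethasone libraries. These came from 33, 23 and 16 control reads and 14, 9 and 13 dexamethasone reads, and the groups overlapped. The log2FC was -0.72 (SE 0.352, limma-adjusted p = 0.0716). The result rested on single control libraries, since the log2FC was -0.999 without control replicate 3 (limma-adjusted p = 0.0241) and -0.47 without control replicate 1 (limma-adjusted p = 0.317). The adjusted p-value was also under the threshold at the same total (limma-adjusted p = 0.0422) and in the edgeR test on recovered reads (edgeR adjusted p = 0.0435).

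Jag1 made up 99.4% ± 0.140 (SD, n = 3) of the level of these 3 ligands per kilobase in control cells and 98.7% ± 0.120 (SD, n = 3) in dexamethasone cells. Their summed level was 1754, 1831 and 1781 normalized counts per kilobase in the control libraries and 669, 665 and 639.5 in the dexamethasone libraries. The level of these ligands therefore followed Jag1 in both groups. The ligand sum was below the receptor sum in each library, by a narrow margin in the control and a wide one in the dexamethasone libraries.

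Both measured effectors changed, in opposite directions. Hes1 (ENSMUSG00000022528), a basic helix-loop-helix repressor that answers to Notch and also to other pathways, had 611, 585 and 626 normalized counts in the control libraries and 1733, 1682 and 1791 in the dexamethasone libraries. The groups did not overlap. The mean rose from 607 ± 20.5 (SD, n = 3) to 1735 ± 54.4 (SD, n = 3), a log2FC of 1.51 (SE 0.054, limma-adjusted p = 3.6e-18).

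Hey1 (ENSMUSG00000040289), a related repressor and widely used readout of Notch activity, had 103, 104 and 111 normalized counts in the control libraries. In the dexamethasone libraries it had 7.63, 5.45 and 5.81, from 8, 5 and 5 reads. The control libraries lay within a narrow range and every dexamethasone library had at most 8 reads. The log2FC of -3.88 (SE 0.264, limma-adjusted p = 1.63e-12) was the largest fall of the 9 genes, and the control mean was 16.8 times the dexamethasone mean. The size of this ratio is imprecise because it rests on few reads.

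Per kilobase of exon, the order of the mean levels in control cells was Jag1, Notch2, Hes1, Notch1, Notch3, Hey1, Dll4, Notch4 and Jag2. Jag1 had 1779 ± 39.5 (SD, n = 3) and Notch2 1309 ± 22.3 (SD, n = 3) normalized counts per kilobase. Hes1, Notch1 and Notch3 had means of 298, 281 and 274 per kilobase. The range of Notch1 overlapped those of Hes1 and Notch3, while Hes1 lay above Notch3 in every control library. Dll4, Notch4 and Jag2, with means of 5.79, 4.30 and 4.17, had overlapping ranges. In dexamethasone cells the order was Notch2, Hes1, Jag1, Notch1, Notch3, Notch4, Jag2, Dll4 and Hey1, with no overlap between the ranges of neighbours. Notch2 had 1586 ± 54.4 (SD, n = 3), Hes1 852 ± 26.7 (SD, n = 3) and Jag1 649.5 ± 16.4 (SD, n = 3) per kilobase, so that Hes1 stood above Jag1 in dexamethasone cells. Hey1 was last, at 1.93 ± 0.358 (SD, n = 3). These orders depended in part on the lengths used, as an alternative added after seeing the data showed. With the longest transcript of each gene, Notch1 (719 per kilobase) stood above Jag1 (674) in dexamethasone cells without overlap, and the ranges of Dll4 and Hey1 overlapped there. In control cells Notch1 (422) then stood with Hes1 (414) above Notch3 (277). Among all tested genes with a known exon length, the level of Hey1 was at percentile 23.6 in control and 1.46 in dexamethasone cells, and that of Hes1 at percentile 52.4 and 72.7.

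Some of these counts could hold reads of other genes. In the GENCODE M21 annotation, the share of exon bases that lie within genes of the opposite strand is 9.76% for Notch1, 6.03% for Notch3 and 5.56% for Dll4. The library kit keeps strand, but the strand setting of the count is not given in the sources used here, so these reads cannot be told apart with certainty. For Notch2, 5.02% of the exon bases are shared with Gm42820 on the same strand. Jag1, Jag2, Notch4, Hes1 and Hey1 had no such overlap, and none of the 75-base windows of their longest transcripts occurred in a transcript of another gene.

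The profile of Notch4 over the 6 libraries was most like those of Ncapd2, Dnmt1 and Rpa2 among 12020 other genes whose mean normalized count reached 100. Likeness was the root mean square difference of log2 values centred on the control mean, and it was 0.074, 0.077 and 0.087 for these genes. Their log2FC values were 2.28, 2.27 and 2.24. For Hey1 the nearest of 12021 genes were Tmem252, Fam180a and Sema3c, at differences of 0.097, 0.11 and 0.11. Their log2FC values were -3.85, -3.76 and -3.83. These lists describe similar values and nothing more.

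Other genes of the pathway were taken from 9 lists of 74 genes, of which 71 were in the table and 62 had enough reads to be tested. Of the 62, 8 were differentially expressed, 4 higher and 4 lower, which is 12.9% beside 22.3% of all genes. The 4 higher were called in every alternative count that kept the fold cut-off, whereas the number lower varied. It was 6 at the same total, in the edgeR test, and without control replicate 1 or dexamethasone replicate 3, and 3 without control replicate 2 or dexamethasone replicate 1. With the adjusted p-value alone 57 passed, which is 91.9% beside 72.5% of all genes. Of these 24 were higher and 33 lower, counts that were 22 and 37 at the same total and 21 and 37 after quantile normalization, where Xxylt1 and Adam10 turned sign after quantile normalization and Adam10 also at the same total. The median log2FC of the 62 genes was -0.13, beside 0.00071 for all genes, and the median of its absolute size was 0.34, beside 0.45. At the same total the median log2FC was -0.24, beside -0.11 for all genes. After quantile normalization it was -0.26, beside -0.07 for all genes. Most of the machinery thus moved by less than the fold cut-off, and the changes past it were spread over 6 of the lists. The counts by the adjusted p-value in each list below stand beside the same 72.5% of all genes, 6497 higher and 6148 lower of 17442.

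**Figure D3:**
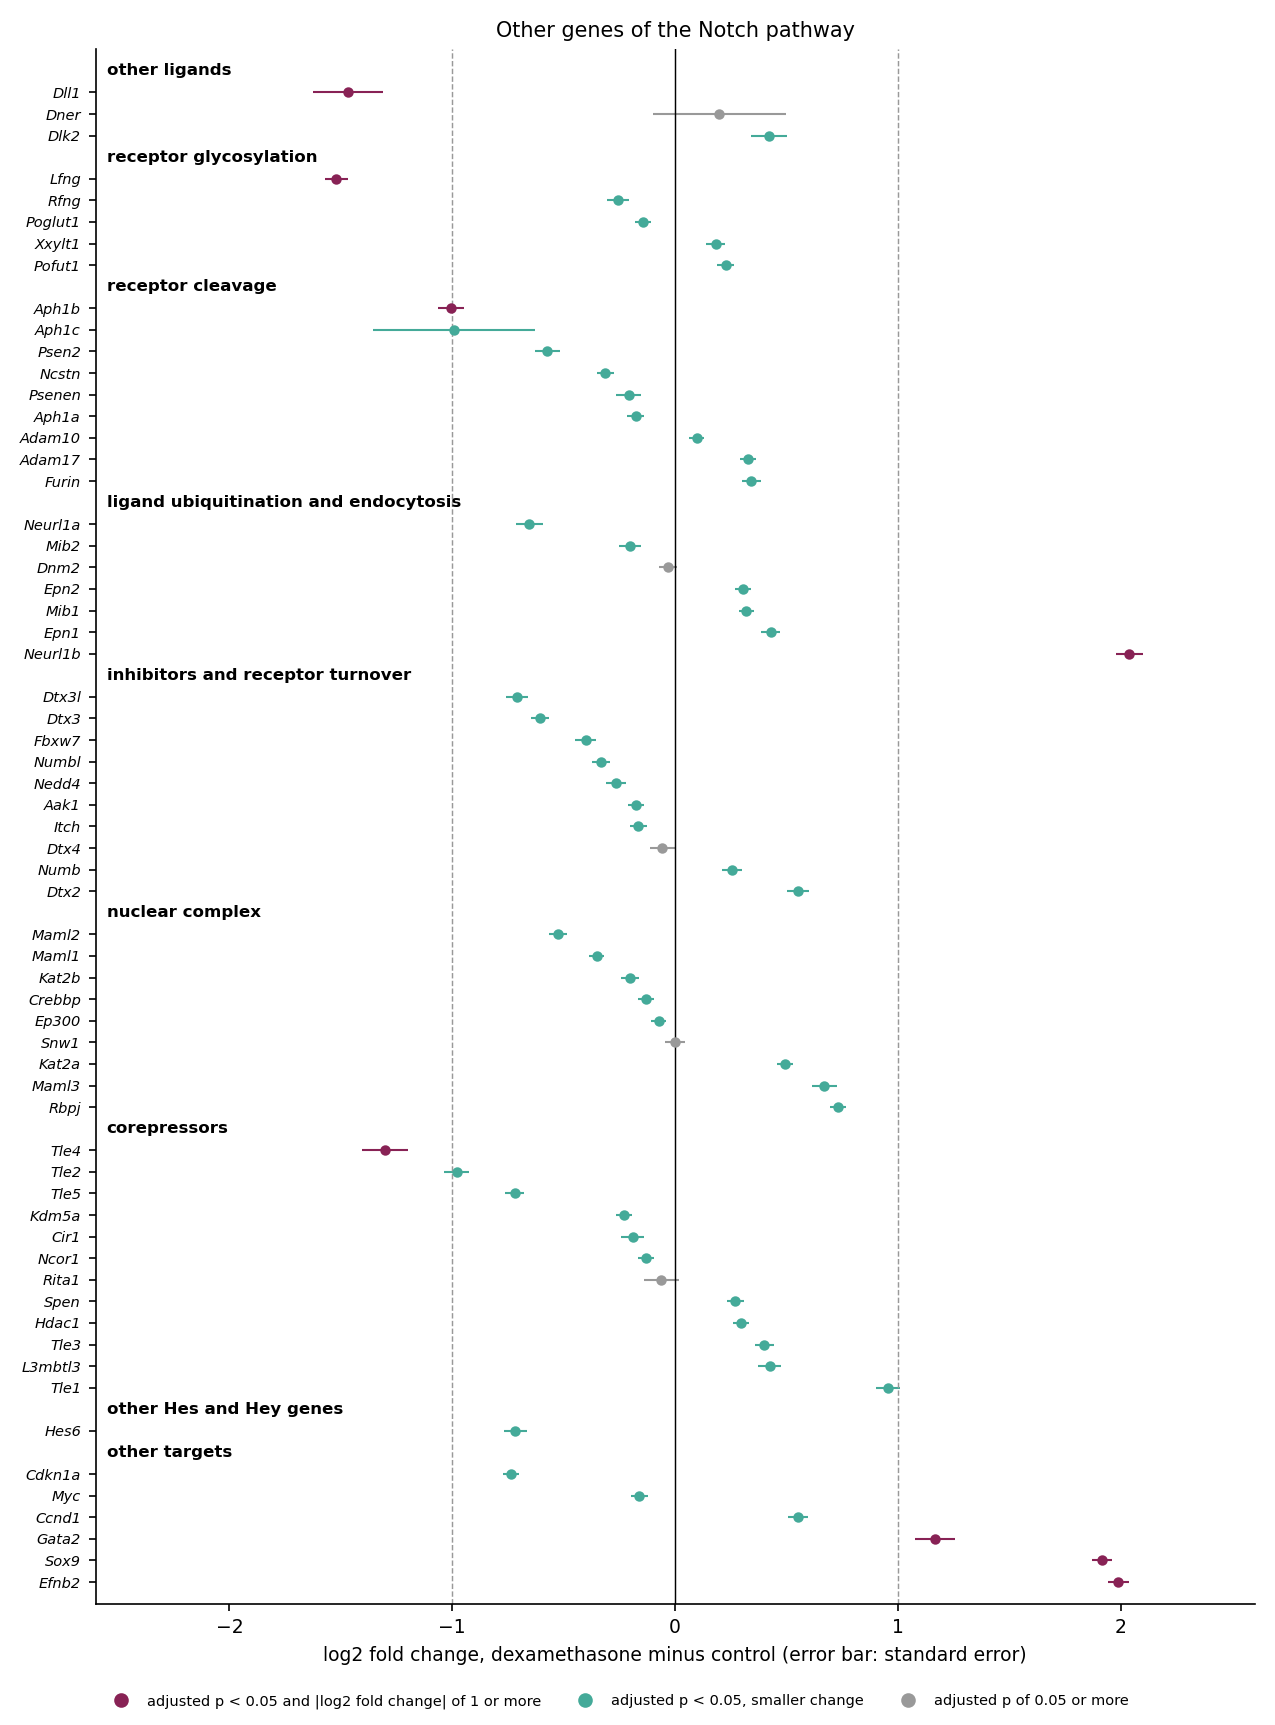
Log2 fold change (horizontal axis, dexamethasone minus control, with its standard error) of the 62 other pathway genes tested, grouped by role, from 3 control and 3 dexamethasone libraries. The 8 genes past both cut-offs are Dll1, Lfng, Aph1b and Tle4 on the lower side and Neurl1b, Sox9, Gata2 and Efnb2 on the higher side, and the small positive values of Adam10 and Xxylt1 turn negative after quantile normalization.

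Of the other ligands, 3 of 5 were tested, and 1 rose, 1 fell and 1 did not pass. Dll1, a Delta ligand that also activates Notch receptors, had 194, 247 and 212 normalized counts in the control libraries and 89.7, 58.9 and 88.4 in the dexamethasone libraries. The groups did not overlap, and the log2FC was -1.47 (SE 0.155, limma-adjusted p = 6.93e-09). Dll1 thus moved in the same direction as Jag1. Dlk2, a non-canonical ligand, had a log2FC of 0.42 (limma-adjusted p = 5.11e-05), and Dner, another, one of 0.20 (limma-adjusted p = 0.56).

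Fringe and other glycosyltransferases add sugars to the receptors and alter which ligands activate them. All 5 tested genes of this list passed the adjusted p-value, 2 higher and 3 lower. Lfng, the Lunatic fringe enzyme, had 2845, 3279.9 and 3172 normalized counts in the control libraries and 1116, 1052 and 1065 in the dexamethasone libraries. The groups were far apart, with a log2FC of -1.52 (SE 0.051, limma-adjusted p = 1.05e-18). Pofut1, which adds the fucose that fringe enzymes extend, had a log2FC of 0.23, which was 0.01 after quantile normalization and no longer passed (limma-adjusted p = 0.668). Poglut1 and Xxylt1, enzymes of the glucose and xylose additions, had log2FC values of -0.14 and 0.18. Xxylt1 did not pass at the same total (0.07, limma-adjusted p = 0.0774) or after quantile normalization (-0.03, limma-adjusted p = 0.448). The number of genes higher in this list was thus 1 at the same total and 0 after quantile normalization.

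The list of receptor cleavage had 9 genes tested, of which 3 were higher and 6 lower by the adjusted p-value. Adam10, the protease of the first ligand-dependent cut, had a log2FC of 0.10 (limma-adjusted p = 0.017), and it did not pass under 5 of 17 alternatives, among them the replicate block (limma-adjusted p = 0.0814) and limma without a trend (limma-adjusted p = 0.0614). Its log2FC was -0.02 at the same total (limma-adjusted p = 0.532), and -0.12 after quantile normalization, where it passed in the other direction (limma-adjusted p = 0.000236). Furin, which processes the receptor on its way to the membrane, had one of 0.34, and Ncstn, a gamma-secretase subunit, one of -0.31. Aph1b, another gamma-secretase subunit, had 1319, 1398 and 1295 normalized counts in the control libraries and 636, 670.4 and 689.5 in the dexamethasone libraries. Its log2FC of -1.01 (SE 0.057, limma-adjusted p = 4.45e-14) was just past the fold cut-off, and was -0.97 without control replicate 2 and -0.97 without dexamethasone replicate 1. Its count is uncertain because 11.6% of the 75-base windows of its longest transcript also occur in the paralog Aph1c.

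Ligands need ubiquitination and endocytosis in the sending cell to activate receptors. Of the 7 genes of this list, 4 were higher, 2 lower and 1 did not pass. Neurl1b, a Neuralized-type ubiquitin ligase, had 434, 426 and 489.5 normalized counts in the control libraries and 1918, 1805 and 1819 in the dexamethasone libraries. The groups did not overlap, and its log2FC was 2.04 (SE 0.061, limma-adjusted p = 8.67e-20). Mib1, a Mind bomb ubiquitin ligase, and Epn1, an endocytic adaptor, had log2FC values of 0.32 and 0.43. These were 0.11 and 0.22 after quantile normalization. Dnm2, which pinches off endocytic vesicles, had one of -0.03 (limma-adjusted p = 0.491). It passed as lower under 3 of 17 alternatives, with -0.15 at the same total (limma-adjusted p = 0.000291), -0.21 after quantile normalization (limma-adjusted p = 2.85e-06) and -0.08 without dexamethasone replicate 1 (limma-adjusted p = 0.036).

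In the list of inhibitors and receptor turnover, 2 of 10 tested genes were higher, 7 lower and 1 did not pass, and none met the fold cut-off. The genes with the highest means, the ubiquitin ligases Nedd4 and Itch and the kinase Aak1, had log2FC values of -0.27, -0.16 and -0.17. The median of the list was -0.22.

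In the nucleus, Rbpj, the DNA-binding partner of the receptor's intracellular domain, had 15705, 15722 and 16429 normalized counts in the control libraries and 26713, 26559.6 and 26113 in the dexamethasone libraries. It rose in each dexamethasone library, with a log2FC of 0.73 (SE 0.035, limma-adjusted p = 1.27e-15), short of the fold cut-off. The acetyltransferase genes Ep300 and Crebbp had log2FC values of -0.07 (limma-adjusted p = 0.0499) and -0.13. Ep300 stood at the threshold and did not pass under 9 of 17 alternatives. Of the 9 genes of the nuclear complex, 3 were higher, 5 lower and 1 did not pass.

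Among 12 corepressor genes, 5 were higher, 6 lower and 1 did not pass. Tle4, a Groucho-type corepressor that Hes and Hey proteins can recruit, had 333, 342.5 and 394 normalized counts in the control libraries and 148, 136 and 148 in the dexamethasone libraries. The groups did not overlap, and the log2FC was -1.30 (SE 0.103, limma-adjusted p = 3.43e-11). Tle5, a short family member without the full repressor domains and the gene with one of the highest means of the list, had one of -0.72. Ncor1, a nuclear receptor corepressor, and Kdm5a, a histone demethylase, had log2FC values of -0.13 and -0.23.

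Of the 7 other Hes and Hey genes, 1 had enough reads to be tested. Hes6, which counteracts Hes1 in some tissues, had a mean normalized count of 1475 ± 56.0 (SD, n = 3) in control and 897 ± 29.9 (SD, n = 3) in dexamethasone cells, a log2FC of -0.72 (limma-adjusted p = 8.38e-12). For Hes3 there were 8, 10 and 5 reads in the control and 2, 1 and 2 in the dexamethasone libraries, and for Hes7 9, 4 and 7 in the control and 10, 4 and 21 in the dexamethasone libraries. Heyl, named after its values were seen, was at 1, 7 and 6 reads with control treatment and at 0 in each dexamethasone library, where a count of 0 allows up to 3 reads. These genes fell below the filter of the main test. With no filter, where 29616 genes were fitted, Hes3 had a log2FC of -1.53 (limma-adjusted p = 0.0238), Heyl one of -2.19 (limma-adjusted p = 0.00674) and Hes7 one of 0.71 (limma-adjusted p = 0.303), and 11 other pathway genes in all were differentially expressed, 4 higher and 7 lower, beside 5326 of all genes. The values of Hes3 and Heyl rest on at most 10 reads in each library, so their size is imprecise.

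Of 6 tested genes that Notch is known to regulate in some tissues, 4 were higher and 2 lower by the adjusted p-value, which 72.5% of all genes passed. Of the 6, 3 were differentially expressed, all higher, beside 22.3% of all genes in either direction and 11.7% higher. Sox9, a transcription factor of cartilage precursors, had 4326, 4762 and 4740.04 normalized counts in the control libraries and 18731, 16878 and 16608 in the dexamethasone libraries. Its log2FC was 1.92 (SE 0.044, limma-adjusted p = 4.04e-22), and the groups were far apart. Efnb2, an ephrin ligand of arterial endothelium, had 1003, 996 and 1031 normalized counts in the control libraries and 4280.1, 3834 and 3926 in the dexamethasone libraries, a log2FC of 1.99 (SE 0.047, limma-adjusted p = 6.16e-22). Gata2, a factor of blood and endothelial precursors, rose from 189 ± 3.61 (SD, n = 3) to 426 ± 22.9 (SD, n = 3), a log2FC of 1.17 (limma-adjusted p = 1.98e-11). The cell-cycle genes Ccnd1 and Cdkn1a, for cyclin D1 and p21, had log2FC values of 0.55 and -0.73.

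Markers of cell types that use these receptors and ligands also moved with treatment. The counts of differentially expressed markers below stand beside 22.3% of all genes, 11.7% higher and 10.6% lower. This balance depended on the scaling, since 2037 genes were called higher and 1857 lower in the main fit, but 1775 higher and 2163 lower at the same total. Of 16 endothelial markers 14 were in the table, 10 were tested, 1 was differentially expressed upward and 3 downward. Their summed level was 10116, 11631 and 11045 normalized counts in the control libraries and 5769, 5019.6 and 5426 in the dexamethasone libraries. S1pr1 was the most abundant in control cells, with 71.6% of the sum, and Vwf in dexamethasone cells, with 57.3%, where S1pr1 had 25.5%. S1pr1 had a log2FC of -2.50, and Vwf and Kdr had 0.76 and 0.25. Without S1pr1, a sum formed after seeing the data, the list had 2997, 3162 and 3143 in the control libraries and 4360.3, 3724 and 3991 in the dexamethasone libraries. By the adjusted p-value 5 of the 10 tested markers were higher and 3 lower, with a median log2FC of 0.18. The differentially expressed markers besides S1pr1, named after their values were seen, were Esam with a log2FC of 1.20 and, on the lower side, Eng and Ptprb with -1.30 and -1.25. Pecam1, the gene of CD31, had 0.74 (limma-adjusted p = 0.0419). Esam rested on 11, 21 and 14 reads in the control and 32, 34 and 27 in the dexamethasone libraries. Pecam1 rested on 11, 18 and 22 reads in the control and 31, 26 and 18 in the dexamethasone libraries. The size of both changes is thus imprecise. The defining endothelial markers Cdh5 and Tie1 had at most 3 reads in every library. The summed list was thus lower with S1pr1 and higher without it in each dexamethasone library. The higher sum without S1pr1 followed Vwf, with 1801, 1916 and 1758 in the control and 3389, 2809 and 3094 in the dexamethasone libraries. The part of these markers in the rise of Notch4 was not tested.

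Of 11 smooth muscle and pericyte markers, 10 were in the table and 8 tested, with 2 differentially expressed, both lower. The sum was 170857, 180167 and 176965 normalized counts in the control libraries and 46958.5, 42975 and 44982 in the dexamethasone libraries. Acta2 was the most abundant in control cells, with 82.3% of the sum, and Pdgfrb in dexamethasone cells, with 47.8%, where Acta2 had 27.7%. Acta2 had a log2FC of -3.54. Without Acta2, also a sum formed after seeing the data, the list had 30162, 31854 and 31219.8 in the control libraries and 34476, 31036 and 32058 in the dexamethasone libraries, and the groups overlapped. The median log2FC of the 8 markers was -0.0076, with 2 higher and 3 lower by the adjusted p-value. Pdgfrb and Cspg4 had log2FC values of -0.08 (limma-adjusted p = 0.0849) and 0.43, and Abcc9 had at most 3 reads in every library. The part of these markers in the fall of Notch3 was not tested.

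All 11 osteoblast markers were tested, of which 2 were differentially expressed upward and 8 downward. Their sum was 2009100, 2116502 and 2137793 normalized counts in the control libraries and 2142748, 2010803 and 2058777 in the dexamethasone libraries. Col1a2 was the most abundant in control cells, with 51.0%, and Spp1 in dexamethasone cells, with 61.8%, where Col1a2 had 24.9%. The groups overlapped in this sum, although Spp1 had a log2FC of 5.25 and Col1a1 and Col1a2 had -1.88 and -1.05. Of the other markers called, Dmp1, Sp7, Runx2, Alpl and Ibsp were named after their values were seen. Dmp1 had a log2FC of 7.16, while Sp7, Runx2, Alpl and Ibsp had -1.86, -1.75, -2.45 and -1.27. Bglap and Bglap2 had -3.05 and -3.33. Without Col1a2, a sum formed after seeing the data, the list had 984819, 1029648 and 1052636 in the control libraries and was higher in each dexamethasone library, at 1587290, 1514557 and 1562376. Spp1 alone had 32469, 34314 and 34003 in the control and 1291250, 1246067 and 1301705 in the dexamethasone libraries. The higher sum without Col1a2 thus followed Spp1, and the median log2FC of the 11 markers was -1.75. The part of these shifts in the fall of Jag1 and Hey1 and the rise of Hes1 was not tested.

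Of 15 blood cell markers 11 were tested, with 3 higher and 3 lower past both cut-offs. Their sum was 2078, 2042 and 2019 normalized counts in the control libraries and 2675, 2508 and 2805 in the dexamethasone libraries. Lyz2 was the most abundant in control cells, with 48.7%, and Cd68 in dexamethasone cells, with 22.4%, where Lyz2 had 13.2%. Lyz2 had a log2FC of -1.50, while S100a9 and Cd68 had 0.09 and 1.78, and Hba-a1 had at most 3 reads in every library. The other differentially expressed markers were named after their values were seen. Cd53 and Itgb2 had log2FC values of 4.11 and 3.20, and Laptm5 and Coro1a had -1.49 and -1.77. Laptm5 had 5, 9 and 4 reads and Coro1a 11, 8 and 1 in the dexamethasone libraries, so their values are imprecise. Ptprc, also named after its values were seen, had 3, 3 and 2 control reads and 3, 5 and 5 dexamethasone reads. By the adjusted p-value 4 of the 11 tested markers were higher and 4 lower, with a median log2FC of 0.09. The sum of 6 adipocyte markers, of which 2 were tested and 1 was differentially expressed, was 30.3, 28.4 and 36.0 in the control libraries and 1438, 1437 and 1545 in the dexamethasone libraries. Fabp4 formed 6.83% of it in control and 98.3% in dexamethasone cells, and Pparg was the most abundant in control cells, with 68.9%. With control treatment Fabp4 was at 3, 2 and 2 reads, and it passed the filter through its dexamethasone libraries, so the size of its log2FC of 8.85 is imprecise. Beside it stood a log2FC of -0.0012 for Pparg, few reads for Adipoq and at most 3 reads of Cidec and Lep in every library. The sum of 7 chondrocyte markers, of which 1 was differentially expressed upward and 1 downward, was 1637, 1658 and 1684 in the control libraries and 6242, 5485 and 5512 in the dexamethasone libraries. Col2a1 formed 91.4% of it in control and 98.96% in dexamethasone cells, with a log2FC of 1.90, beside -1.23 for Comp, few reads for Col10a1 and at most 3 reads of Matn1 and Col9a1 in every library. Further sums, formed after seeing the data, left out the gene of each list most abundant over all libraries together. The chondrocyte list then turned lower, from 143, 142 and 143 to 62.0, 58.9 and 58.1. The groups of the adipocyte list then overlapped, with 27.5, 26.4 and 34.3 in control and 24.8, 27.3 and 24.4 in dexamethasone cells, and the blood cell list stayed higher, from 1081, 1057 and 1014 to 2319, 2172 and 2443. The part of these cell types in the changes of the Notch genes was not tested.

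Promoter sequence was read from the RefSeq promoter table of build GRCm38.p6, which held 8 of the 10 members, Hes1 and Hey1 not among them. In the 250 bases before the transcription start, both strands were searched for TGGGAA, the core bound by RBPJ, for GTGGGAA, which contains it, for the glucocorticoid receptor palindrome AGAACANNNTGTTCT, and for its arm AGAACA. The core TGGGAA was found in 1 of the 8 member promoters, that of Hey2, where 21.6% of all 32851 promoters held it. GTGGGAA occurred in 5.415% of all promoters, the palindrome in 0.00913% and the arm in 16.1%, and neither of the latter occurred in a member promoter. Among the 59 other pathway genes with a promoter in the table, 20 of 81 promoters held TGGGAA. Notch3 and Notch4 are shown because they lie on the same chromosome and moved in opposite directions, and Lfng because it fell with Notch3 and held TGGGAA at 2 places, shown in capitals, 1 of them as its reverse complement TTCCCA. A match is a description of letters and not a site of binding, which was not measured here.
Notch3, chr17:32166891-32167140, minus strand: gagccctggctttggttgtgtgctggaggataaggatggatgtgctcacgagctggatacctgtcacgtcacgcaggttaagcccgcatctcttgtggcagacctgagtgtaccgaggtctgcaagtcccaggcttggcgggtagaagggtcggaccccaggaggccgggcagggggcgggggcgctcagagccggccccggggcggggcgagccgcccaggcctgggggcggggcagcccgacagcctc
Notch4, chr17:34564045-34564294, plus strand: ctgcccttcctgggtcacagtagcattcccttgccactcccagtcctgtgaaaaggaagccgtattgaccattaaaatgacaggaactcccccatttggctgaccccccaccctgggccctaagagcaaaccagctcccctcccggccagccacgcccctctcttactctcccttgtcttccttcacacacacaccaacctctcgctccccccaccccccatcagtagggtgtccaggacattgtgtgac
Lfng, chr5:140607091-140607340, plus strand: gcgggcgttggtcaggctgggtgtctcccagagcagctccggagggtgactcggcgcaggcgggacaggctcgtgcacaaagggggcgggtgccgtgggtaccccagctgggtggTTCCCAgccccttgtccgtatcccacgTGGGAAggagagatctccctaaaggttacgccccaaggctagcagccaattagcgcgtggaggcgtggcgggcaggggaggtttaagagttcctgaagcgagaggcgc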

How the data were processed

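RNA from bone cells of 3 control and 3 dexamethasone-treated samples was sequenced with the KAPA stranded mRNA kit. The authors aligned and counted reads with STAR 2.7.10a and normalized them with DESeq2 1.36.0, and the submitters' processing notes name GRCm39. The values the authors deposited are a signal, read counts divided by 1 size factor per library. Whole reads were recovered for 100% of the values (within 0.01 of a read), 72596611 to 89910728 reads per library. Among the tests for differential expression they served only the edgeR and DESeq2 alternatives, which called 3944 and 3870 genes. The reads and shares of reads given in the results are also these recovered reads.

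Of 29616 Ensembl identifiers, 28087 had a symbol in GENCODE M21, which also gave exon lengths and overlaps. Its build is GRCm38, so none of its coordinates are given, and the only coordinates printed are those of the RefSeq promoters of GRCm38.p6. Tle5 was matched through a RefSeq synonym. Genes whose mean normalized count reached 10 were compared on log2(normalized count + 1) with limma 3.58.1 in R 4.3.3 (trended empirical Bayes), with Benjamini-Hochberg adjustment over all 17442 genes tested. Differential expression required an adjusted p under 0.05 together with a log2 change of 1 or more in size. The added 1 understates the change of low genes. For 1 gene, an exact permutation test of 3 against 3 cannot go below 0.1. The procedure was tested on simulated data whose changes were well past the fold cut-off and whose dispersion was the same for all genes. Changes near the cut-off were not covered.

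The members and lists were chosen with earlier results of these data known. Some pathway genes are not reported here and were left out of the list counts. Named genes were the members, the called genes and the 3 with the highest mean of each pathway list, the 3 with the highest mean and those near 0 of each marker list, and the 3 genes most like the members with the largest rise and fall. Bglap, Bglap2, Pecam1 and Aph1c were named besides these. Others were named after their values were seen, where the text says so. Levels were compared between genes per kilobase of exon, over the union of exons. Replicate libraries differed by more than sampling noise (chi-square per degree of freedom 3.27 to 26.2 within groups). Alternatives in pseudocount, filter, scaling, test and libraries were tried. Intervals of reads and the limit of 3 reads at a count of 0 cover counting error only.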

Additional observations from a re-analysis of the deposited data

How the results depend on the processing

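All 9 Notch genes kept their direction under each alternative that tested them, and the 5 differentially expressed ones kept that status, except that Hey1 could not be tested with a mean of at least 100 or with at least 10 normalized counts in every library, which left 4. Of 148 values of the 9 genes, 143 stayed on the same side of both thresholds, 1 was weaker (Notch2 after quantile normalization) and 4 were stronger by the adjusted p-value (Jag2 and Dll4). Hey1 ranged from -4.07 with DESeq2 to -3.30 with a pseudocount of 5, and Notch4 from 2.13 to 2.35. Rescaling all libraries to the same total moved the median of all genes to -0.11.

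The number of genes called was 3894, and 2170 with a mean of at least 100, where fewer genes were tested, and 12645 with the adjusted p-value alone, which for the other pathway genes gave 57 in place of 8. Leaving out each library gave 3878 to 3910 calls. Under quantile normalization some named pathway genes kept their direction but moved in size. Furin went from 0.34 to 0.13, Itch from -0.16 to -0.37 and Crebbp from -0.13 to -0.33. Of the 31 other pathway genes tested and named in the report, those that changed sign were Xxylt1 (-0.027) and Adam10 (-0.12) after quantile normalization, Adam10 at the same total (-0.018) and Dnm2, which did not pass, without dexamethasone replicate 2 (0.0076, from -0.081 over libraries left out), although it passed as lower under 3 alternatives, and the cause was not tested.

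With longest transcripts in place of exon unions, a change that acts through the lengths, the receptor shares in control cells were 20.6% for Notch1, 65.7% for Notch2 and 13.5% for Notch3, and in dexamethasone cells 28.9%, 65.5% and 4.61%, with 1.02% for Notch4. The Jag2 share was 0.306% in control and 1.00% in dexamethasone cells, and that of Jag1 98.5% in dexamethasone cells. In an alternative added after seeing the data, the same lengths placed Notch1 above Jag1 in dexamethasone cells, at 719 and 674 per kilobase.

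A second alternative added after seeing the data left out of each marker sum the gene most abundant over all libraries together. In dexamethasone cells alone, Spp1, Vwf, Pdgfrb and Cd68 led the osteoblast, endothelial, smooth muscle and pericyte, and blood cell lists. In control cells Pparg led the adipocyte list. Sums without these genes were not formed. The log2 ratio of the sums, dexamethasone over control, turned from -1.02 to 0.376 for the endothelial, from -1.97 to 0.0656 for the smooth muscle and pericyte, from 5.54 to -0.206 for the adipocyte and from 1.79 to -1.26 for the chondrocyte markers. It went from -0.012 to 0.605 for the osteoblast and from 0.38 to 1.14 for the blood cell markers. The osteoblast value without Col1a2 followed Spp1, with means of 33595 in control and 1279674 in dexamethasone cells. The endothelial value without S1pr1 followed Vwf, with means of 1825 and 3097.

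With the replicate number as a block, 3897 genes, 5 members and 8 other pathway genes were called. The deviations of libraries with the same number correlated at -0.0999, -0.105 and -0.0199 across genes, and no library correlated best with its own number. The highest correlation between libraries of different number was 0.0981, so all values were small. With so few libraries per group their deviations are tied together, so these values cannot decide whether libraries of the same number were paired. Low counts limit Jag2, Dll4 and the dexamethasone values of Hey1.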
